A study of Homo sapiens with 6 samples.

Results

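The 57 genes described here encode the machinery that carries a cell from G1 into S phase and copies its DNA. They were named as a list, from the D-type cyclins to the E2F factors, and not chosen by a cut on measured values. Every probe set whose platform symbol entry includes a member was used. This gave 114 of 54613 probe sets tested. Each of them names 1 gene, all 57 members have at least 1, and 34 members have several, up to 7 for CDK6. The study used Affymetrix arrays to profile MDA-MB-436, a human breast tumour line kept in culture. One group is 3 arrays of cells labelled NF1-C2S transfected, with the condition given as overexpressing NF-C2, and the series record describes a stable transfection with an expression plasmid for NF1-C2. NF1-C2 is a form of nuclear factor I-C, a transcription factor encoded by NFIC. The other is 3 arrays of wild type cells, and no cells with an empty plasmid are among the samples. Both groups grew in the same serum and insulin medium. The labels do not say whether 1 clone or a pool was profiled, or whether the replicates were separate cultures, so p-values measure only the spread between these samples.

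In G1, D-type cyclins activate CDK4 and CDK6, which phosphorylate the retinoblastoma protein and release E2F transcription factors. E2F factors then drive many of the genes listed here. Origins are licensed when ORC, CDC6 and CDT1 load the ring-shaped MCM helicase, and they fire when the CDC7 kinase and cyclin-dependent kinases recruit CDC45 and GINS to that ring. These genes are usually read as a proliferation signature in breast tumours because most of them peak together at the G1/S transition.

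Arrays correlated at 0.992 to 0.997 within groups and at 0.971 to 0.976 between them. NFIC, the gene of the construct, read 8.22, 8.23 and 8.30 on the log2 scale in the transfected arrays and 8.40, 8.49 and 8.52 in the wild type arrays on its brightest probe set. It fell by 0.22 (limma adjusted p = 0.047), while the label gives overexpression. Whether these probe sets read the plasmid's insert is not known, so the fall does not bear on the label. The call ended with the replicate block (adjusted p = 0.053), with median centring (0.082) and with the mean of its 4 probe sets (0.334). It also ended with _x_at and _s_at probe sets left out (0.0707) and when any 1 array was left out (0.0596 to 0.133). In the test over all probe sets none of the 4 passed. The gene of a related factor, NFIX, differed far more: 1 of its probe sets read 11.69, 11.29 and 11.62 in the transfected arrays and 5.21, 4.69 and 4.46 in the wild type arrays, a log2 change of 6.75 (limma adjusted p over all probe sets 1.4e-06). Of the other NFIX probe sets, 2 fell by 1.07 and 0.64 and 1 read -0.46 without passing, so the probe sets of that gene disagree. The sequence of the plasmid's insert is not given in the sources, its relation to these readings was not tested, and "transfected" below means the arrays labelled so. The markers used to check the cell type gave mixed readings. The keratin KRT18 and vimentin (VIM) were well above background in both groups, at 11.62 and 13.01 in transfected arrays and 12.55 and 13.54 in wild type arrays, and both passed as lower in transfected cells (limma adjusted p = 0.000136 and 0.000644). Fibronectin (FN1), a mesenchymal marker, averaged 7.44 in transfected arrays and 10.21 in wild type arrays, a log2 change of -2.77 (limma adjusted p = 5.8e-06). The mesenchymal marker CDH2 went the other way, at 9.37 in transfected and 9.19 in wild type arrays, and did not pass. E-cadherin (CDH1), a defining epithelial gene, lay near background at 3.44 in transfected and 3.42 in wild type arrays. The epithelial markers EPCAM, KRT8 and KRT19 did not pass. Of the basal markers, EGFR fell by 0.37 (limma adjusted p = 0.00542), while KRT5 and KRT14 did not pass. The luminal receptor genes ESR1, PGR and ERBB2 did not pass. Of 6 measured markers of blood cells and endothelium, 1 passed. CD14, a monocyte marker, read 6.59 in transfected arrays and 5.77 in wild type arrays (limma adjusted p = 0.00947). The means of PTPRC, CD3E, CDH5 and VWF lay under the median of all probe sets in both groups, while the endothelial gene PECAM1 lay above it, at 5.31 in transfected and 5.39 in wild type arrays. The part of these markers in the results was not tested.

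One wild type array stands apart for these genes. Replicate 3 was alone the lowest of the wild type arrays in 44 of 57 members (77.2%), against 32.4% of all 19775 genes tested, and its median deviation from the wild type mean was -0.083 on the log2 scale over the members. The other arrays had median deviations of -0.027, 0.013 and 0.010 for transfected replicates 1, 2 and 3, and 0.026 and 0.058 for wild type replicates 1 and 2. Also, 34 of its 57 member values carry more than 2 decimals in the deposited table. Why this array differs was not tested, and the counts and some of the calls without it are given below.

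**Figure D1:**
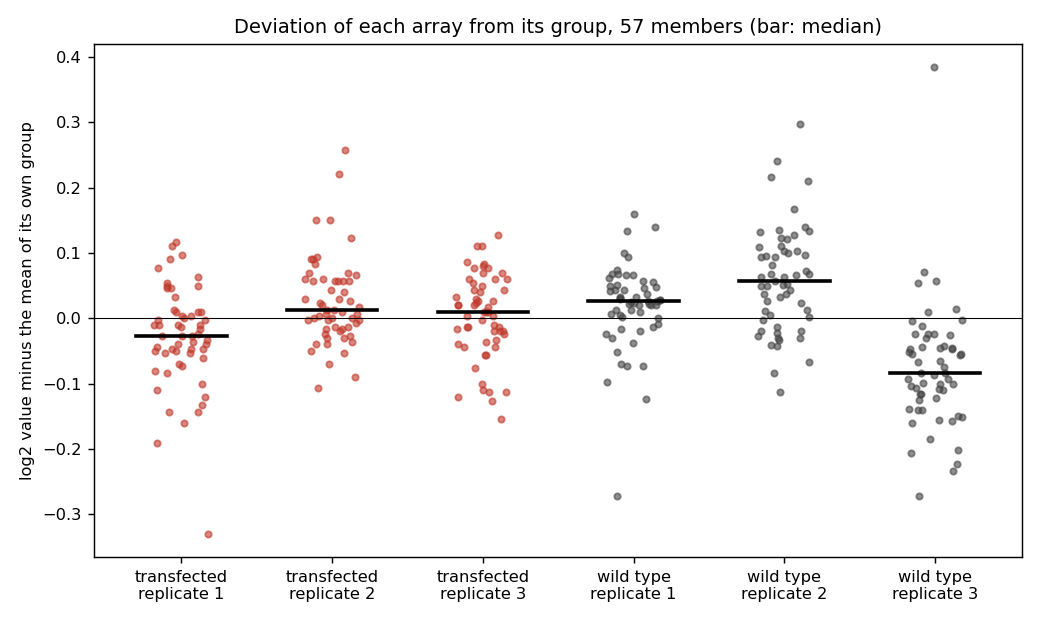
Deviation of the log2 value of each member from the mean of its own group (vertical axis), by array (horizontal axis, transfected arrays left), with a point for each of the 57 members and a bar at the median. Wild type replicate 3 has the lowest median, -0.083, and the CCND2 value of that array, 0.38 above its group mean, is the highest point.

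The replication genes did not move as 1 group. With 1 value per gene from its brightest probe set, 17 of 57 members rose and 14 fell past an adjusted p under 0.05 (limma, Benjamini-Hochberg over all genes), and 26 did not pass. Over all genes tested, 31.9% passed, 15.0% higher and 16.9% lower. The share called was 54.4% among members, each of which is read by a probe set above the median of the array in at least 1 group. With dim probe sets left out, 3111 of 13147 genes were higher and 3447 lower, a larger share than over all genes. That share lies nearer to the 54.4% of the members than 31.9% does. Groups did not overlap in 39 of 57 members, against 43.0% of all genes. The median log2 change of the members was 0.01, against 0 for all genes, and 29 of 57 changes were positive. The median absolute log2 change was 0.251 among members, against 0.16 for all genes. Large changes were few: 1 of 57 members (1.75%) differed by at least 2-fold in either direction, against 6.72% of all genes. This count holds for the brightest probe set of each gene, and RFC5 also passed 2-fold when its probe sets were averaged. In a bulk RNA sample, fewer cells in S phase and less RNA per cell cannot be told apart.

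Without wild type replicate 3, 12 members rose and 15 fell. Over all 19775 genes, 2606 then rose and 2886 fell, against 2961 and 3339 with all arrays. The calls of 10 members ended when some single array was left out: CCND3, CDK6, GMNN, MCM4, MCM8, GINS3, PRIM1, FEN1, RPA1 and DUT, with adjusted p-values of 0.0508 to 0.149. Each of the 6 arrays ended between 5 and 9 of these calls. A total of 11 calls held under all 15 alternatives that gave a value: CCND1, CCND2, CDK4, CDC7, DBF4, MCM3, MCM7, GINS1, RFC5, E2F1 and E2F3. Over probe sets, 28 of 114 rose and 21 fell, where 22.2% of all probe sets passed, 10.8% higher and 11.4% lower. Groups did not overlap in 69 of the 114, against 34.9% of all probe sets. No member had probe sets that passed in opposite directions.

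**Figure D2:**
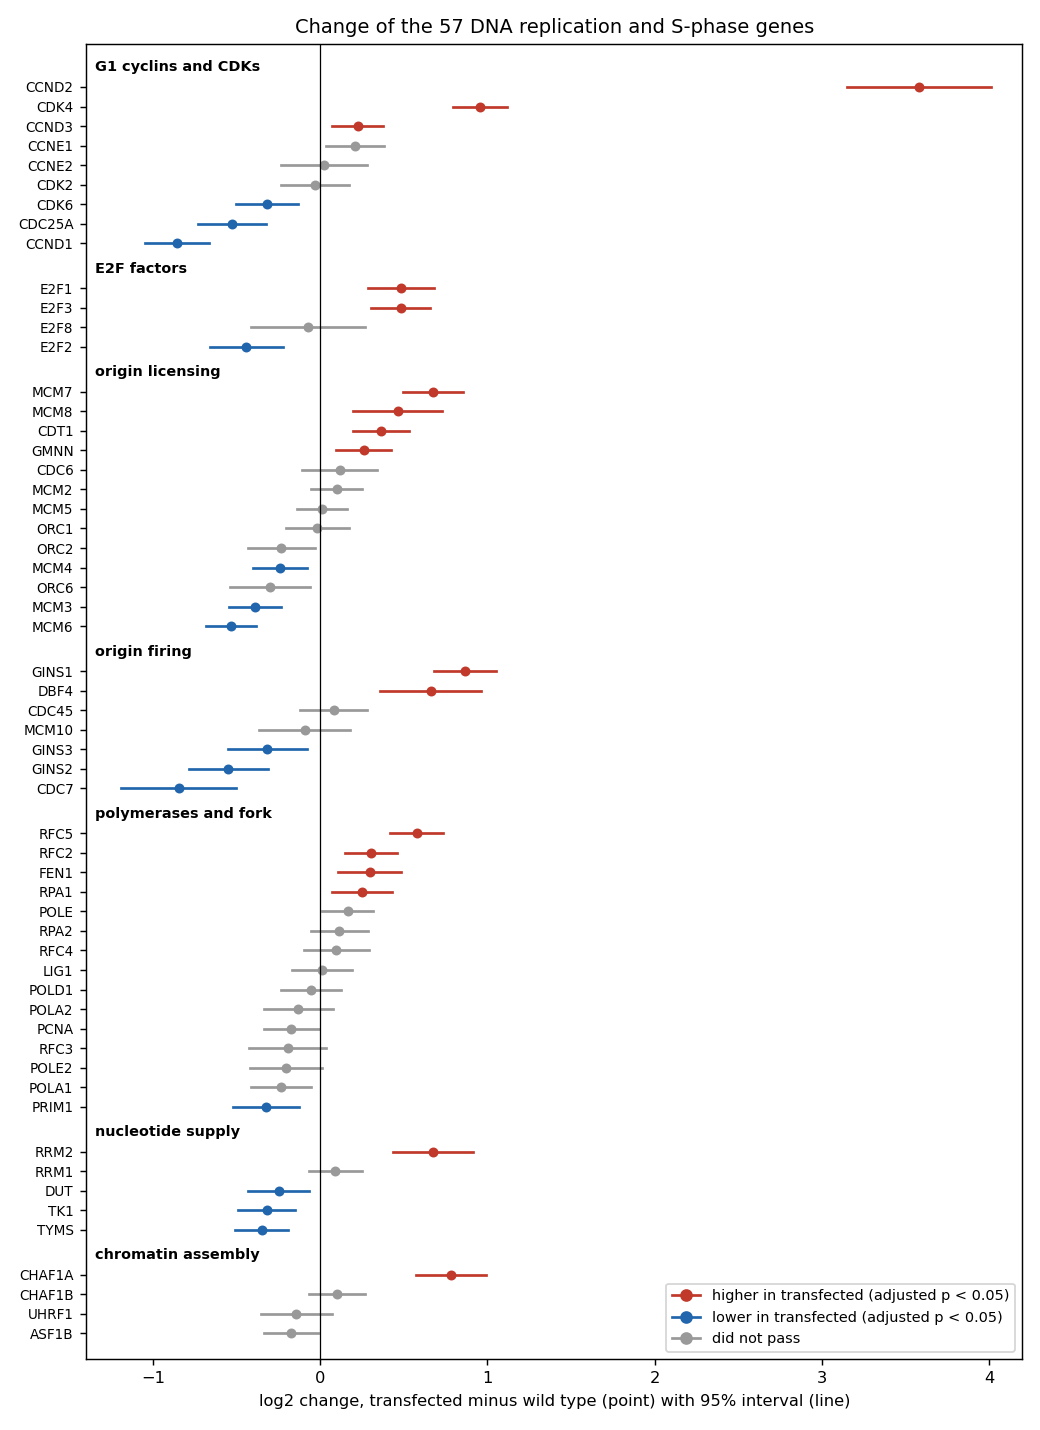
Log2 change of each of the 57 members, transfected minus wild type, with its 95% interval from limma (horizontal axis), ordered by role and size (vertical axis), red for higher, blue for lower and grey for genes that did not pass. CCND2 lies at 3.58, beyond every other member on this reading, and each role except chromatin assembly holds genes on both sides that passed.

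The D-type cyclins diverged. CCND2, which encodes cyclin D2, read 7.32, 7.72 and 7.35 on the log2 scale in the transfected arrays, against 3.61, 3.77 and 4.27 in the wild type arrays. All wild type values lie under the median of all probe sets, 4.82, and all transfected values lie well above it. The log2 change was 3.58 (SE 0.18, limma adjusted p = 1.5e-05), a measured 11.97-fold difference, and RMA compresses differences this near to background. Another 2 CCND2 probe sets rose by 1.81 and 0.76, and the last, at 4.61 in transfected and 4.55 in wild type arrays, read 0.06. All end in _s_at, a suffix for probes that can match several transcripts. The mean over them rose by 1.55.

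CCND1, which encodes cyclin D1, read 8.52, 8.35 and 8.50 in the transfected arrays and 9.24, 9.41 and 9.29 in the wild type arrays. The groups were separated by more than the range of either one. It fell by 0.86 (SE 0.08, limma adjusted p = 0.000191), and its second probe set fell by 0.78. CCND3, for cyclin D3, read 9.61, 9.62 and 9.68 in the transfected arrays and 9.44, 9.37 and 9.43 in the wild type arrays, a rise of 0.22 (limma adjusted p = 0.0348, but 0.0511 with the replicate number as a block, and 0.0602 to 0.106 when any 1 array was left out). Thus 1 D-type cyclin gene was lower, 1 was higher from a level near background and 1 rose slightly.

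Their kinase partners also went opposite ways. CDK4 read 10.89, 10.92 and 11.01 in the transfected arrays, against 10.01, 9.99 and 9.95 in the wild type arrays. The change was 0.96 (SE 0.07, 1.94-fold, limma adjusted p = 5e-05), on the only CDK4 probe set. CDK6 fell by 0.32 on its brightest probe set (limma adjusted p = 0.0182), a call that ended without wild type replicate 1 or 2 (adjusted p = 0.0508 and 0.0657). All 7 CDK6 probe sets were lower in transfected cells, from -0.04 to -0.79, and 2 of them passed.

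The phosphatase gene CDC25A, whose product activates CDK2 by removing inhibitory phosphates, fell. It read 8.47, 8.50 and 8.60 in the transfected arrays and 9.08, 9.16 and 8.91 in the wild type arrays (log2 change -0.53, SE 0.09, limma adjusted p = 0.00266). The other CDC25A probe sets fell by 0.78 and 0.60. Neighbouring genes moved with it: the median change of the 10 measured genes on either side was -0.59, and after subtraction CDC25A read 0.065 (limma adjusted p = 0.636).

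The E-type cyclins, which act with CDK2 at the start of S phase, did not pass. CCNE1 read 8.61, 8.53 and 8.42 in transfected arrays and 8.35, 8.30 and 8.29 in wild type arrays, a change of 0.21 (95% interval 0.03 to 0.38, limma adjusted p = 0.0767). CCNE2 read 8.41, 8.75 and 8.64 in transfected arrays and 8.57, 8.71 and 8.46 in wild type arrays, with overlapping groups and a change of 0.02 (95% interval -0.24 to 0.28). The neighbours of CCNE2 shifted by -0.585, so that it read 0.61 above them (limma adjusted p = 0.00486). CDK2 changed by -0.03 (95% interval -0.23 to 0.17).

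**Figure D3:**
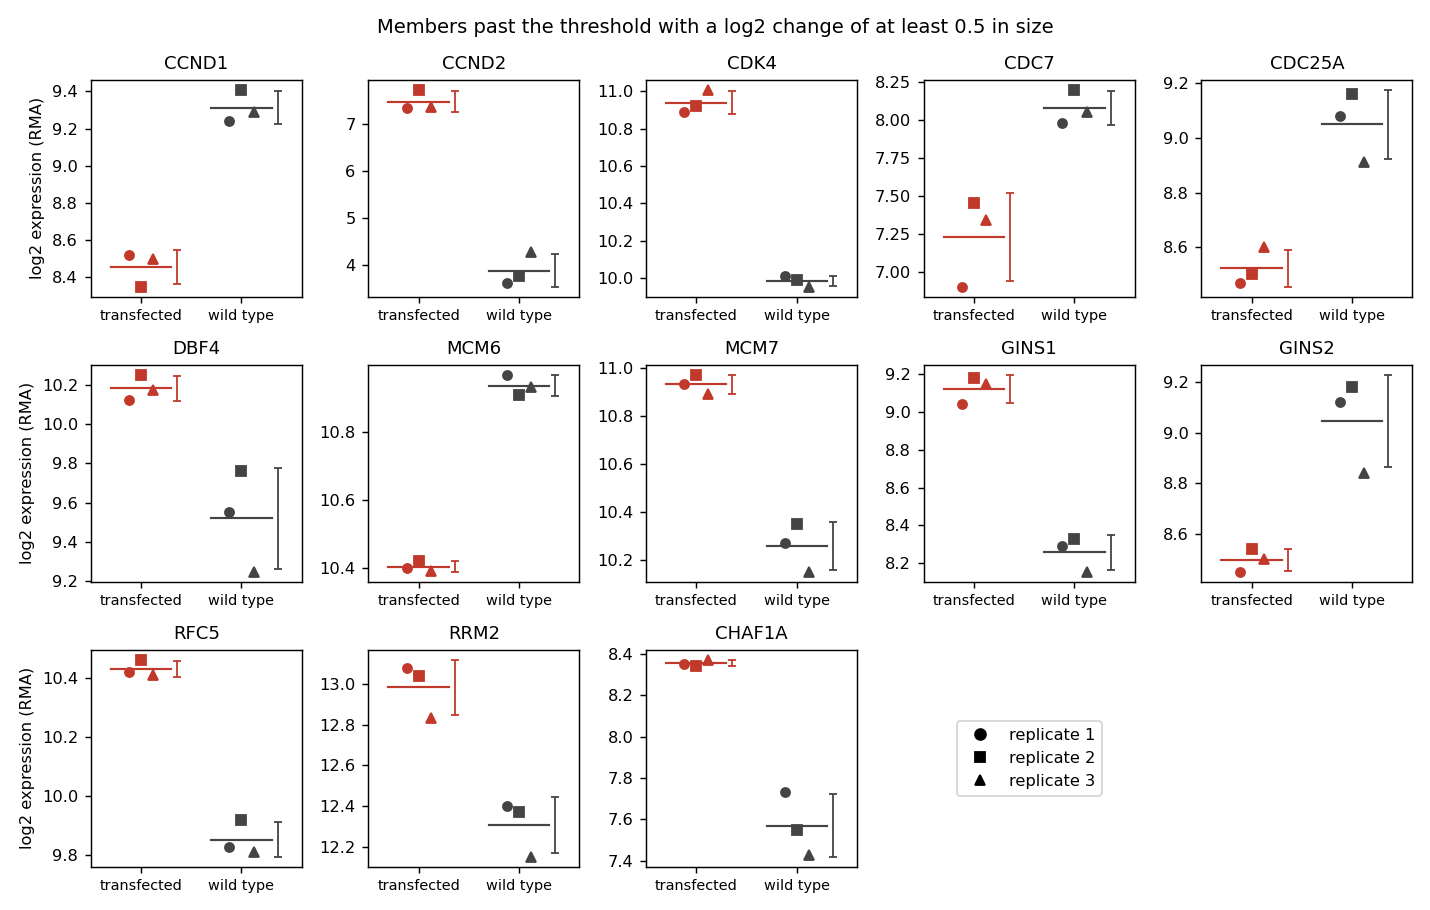
Log2 expression (RMA) on each array for the 13 members past the threshold with a log2 change of at least 0.5 in size, transfected left of wild type in each panel, with a horizontal line at the mean and an error bar of 1 SD (n = 3). The vertical scale differs by panel, and in each of the 13 panels the groups do not overlap.

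Among E2F factors, activators were split. E2F1 read 8.19, 8.16 and 8.34 in the transfected arrays and 7.71, 7.85 and 7.68 in the wild type arrays, a rise of 0.48 (SE 0.08, limma adjusted p = 0.00333). E2F2 read 7.30, 7.18 and 7.07 in transfected arrays, against 7.76, 7.56 and 7.56 in wild type arrays, and fell by 0.44 (SE 0.09, limma adjusted p = 0.00832). Neither pair of groups overlapped. E2F3 rose by 0.48 (limma adjusted p = 0.00216), with a second probe set at 0.30. Averaged with its 2 dimmer probe sets, E2F2 read -0.24 and did not pass (limma adjusted p = 0.115). E2F8, an atypical repressor of the family, read -0.07 with overlapping groups (95% interval -0.41 to 0.27).

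Licensing genes divided within the MCM ring. MCM7 read 10.93, 10.97 and 10.89 in the transfected arrays and 10.27, 10.35 and 10.15 in the wild type arrays. MCM6 read 10.40, 10.42 and 10.39 in the transfected arrays and 10.97, 10.91 and 10.93 in the wild type arrays. Both encode subunits of the same hexamer, and both differed by more than the range within either group, MCM7 upward by 0.67 (SE 0.08, limma adjusted p = 0.000442) and MCM6 downward by 0.53 on the log2 scale (log2 change -0.53, SE 0.06, limma adjusted p = 0.000519). Both MCM7 probe sets rose, by 0.67 and 0.66. The second MCM6 probe set is near background and read -0.10, which takes the mean of the pair to -0.32 (limma adjusted p = 0.135).

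The remaining ring subunits were lower or did not pass. MCM3 fell by 0.39 (limma adjusted p = 0.00302). MCM4 fell by 0.24 on its brightest probe set (limma adjusted p = 0.0318), a call that ended without any 1 of the arrays and with quantile normalization (adjusted p = 0.0526), while 3 of its other 4 probe sets fell by 0.29 to 0.49. MCM2 read 10.50, 10.50 and 10.55 in transfected arrays and 10.46, 10.42 and 10.38 in wild type arrays, a change of 0.10 that did not pass (95% interval -0.05 to 0.25, limma adjusted p = 0.333). MCM5 changed by 0.01 (95% interval -0.14 to 0.16). MCM8, a helicase outside that ring with a role in recombination, rose by 0.46 (limma adjusted p = 0.0169, but 0.0601 to 0.0631 when transfected replicate 2 or 3 or wild type replicate 1 or 3 was left out).

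Both the loader CDT1 and its inhibitor geminin (GMNN) rose. CDT1 rose by 0.36 on an _x_at probe set (limma adjusted p = 0.00621), while its second probe set read -0.04, and the mean of both did not pass (limma adjusted p = 0.153). GMNN rose by 0.26 (limma adjusted p = 0.0249, but 0.0519 to 0.0774 without transfected replicate 2 or 3 or wild type replicate 2 or 3). CDC6, the ATPase that recruits the helicase, read 8.89, 8.99 and 8.92 in transfected arrays and 8.88, 8.94 and 8.63 in wild type arrays. Its groups overlapped, and the change of 0.12 did not pass (95% interval -0.11 to 0.34). Of the origin recognition genes, the members ORC1, ORC2 and ORC6 read -0.02, -0.23 and -0.30 and did not pass (limma adjusted p = 0.903, 0.0793 and 0.06). ORC6 passed with quantile normalization (adjusted p = 0.0434).

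Origin firing genes gave contrasts within complexes. CDC7, the kinase that triggers firing, read 6.90, 7.45 and 7.34 in the transfected arrays, against 7.98, 8.20 and 8.05 in the wild type arrays. DBF4, the regulatory subunit that CDC7 needs for activity, read 10.12, 10.25 and 10.17 in the transfected arrays and 9.55, 9.76 and 9.25 in the wild type arrays. The kinase gene fell by 0.85 (SE 0.15, limma adjusted p = 0.00337) and the gene of its activator rose by 0.66 (SE 0.13, limma adjusted p = 0.006), each on its only probe set. After the shift of the neighbouring genes, 0.20, was subtracted, DBF4 read 0.46 (limma adjusted p = 0.0306).

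The GINS complex, which holds the helicase in its active form, showed the same kind of divergence. GINS1 read 9.04, 9.18 and 9.15 in the transfected arrays and 8.29, 8.33 and 8.15 in the wild type arrays, a rise of 0.87 (SE 0.08, 1.82-fold, limma adjusted p = 0.000157). GINS2 read 8.45, 8.54 and 8.50 in the transfected arrays and 9.12, 9.18 and 8.84 in the wild type arrays, a fall (log2 change -0.55, SE 0.10, limma adjusted p = 0.00442). Both comparisons had groups that did not overlap. The 2 other GINS2 probe sets are dimmer and read 0.05 and -0.13, and with its neighbours' shift of -0.24 subtracted GINS2 read -0.31 (limma adjusted p = 0.0536). GINS3 fell by 0.32 (limma adjusted p = 0.0476), but the call ended with the replicate block (adjusted p = 0.0799), with median centring (0.0603) and when transfected replicate 1 or 2 or wild type replicate 1 or 2 was left out. CDC45 and MCM10, which join the helicase at firing, read 0.08 and -0.09 and did not pass (limma adjusted p = 0.577 and 0.632).

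The upstream sequence of 6 members with a change of at least 0.5 in size is shown. These 6 were chosen by hand and do not stand for the rest. CDK4, DBF4, RFC5, RRM2 and CHAF1A, which were all higher by at least 0.5, hold no E2F octamer in this window. Each sequence shown is the 250 bases before a start of the gene in RefSeq, build GRCh38.p14, read 5′ to 3′ on the gene's strand. Capitals mark matches to TTTGGCGC, TTTCCCGC or TTTCGCGC on either strand. For MCM7 and CDC7, which have 3 and 2 starts in the table, a start with a match is shown. The CDC7 window lies after the outermost start of that gene, at 91500851, and so within the gene. MCM7 lies at chr7:100101398-100101647 (- strand), MCM6 at chr2:135876444-135876693 (- strand), CDC7 at chr1:91500862-91501111 (+ strand), CDC25A at chr3:48188418-48188667 (- strand), GINS2 at chr16:85688955-85689204 (- strand) and GINS1 at chr20:25407423-25407672 (+ strand).
MCM7: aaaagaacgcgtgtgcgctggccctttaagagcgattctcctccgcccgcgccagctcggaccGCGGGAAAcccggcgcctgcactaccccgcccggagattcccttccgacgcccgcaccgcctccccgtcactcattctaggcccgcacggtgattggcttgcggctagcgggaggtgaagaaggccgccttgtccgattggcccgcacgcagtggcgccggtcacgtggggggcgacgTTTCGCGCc
MCM6: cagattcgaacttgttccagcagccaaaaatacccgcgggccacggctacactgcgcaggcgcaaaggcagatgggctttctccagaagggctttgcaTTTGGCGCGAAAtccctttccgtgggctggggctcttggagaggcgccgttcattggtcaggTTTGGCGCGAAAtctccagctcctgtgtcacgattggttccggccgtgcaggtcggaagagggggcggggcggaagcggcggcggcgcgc
CDC7: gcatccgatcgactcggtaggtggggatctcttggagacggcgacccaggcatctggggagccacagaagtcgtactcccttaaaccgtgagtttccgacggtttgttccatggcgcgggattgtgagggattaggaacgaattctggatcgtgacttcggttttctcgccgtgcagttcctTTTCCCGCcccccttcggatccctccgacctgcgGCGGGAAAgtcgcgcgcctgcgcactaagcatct
CDC25A: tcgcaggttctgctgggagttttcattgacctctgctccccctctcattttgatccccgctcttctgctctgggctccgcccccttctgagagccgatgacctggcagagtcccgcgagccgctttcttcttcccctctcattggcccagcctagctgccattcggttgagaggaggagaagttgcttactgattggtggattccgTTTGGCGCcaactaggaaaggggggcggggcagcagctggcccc
GINS2: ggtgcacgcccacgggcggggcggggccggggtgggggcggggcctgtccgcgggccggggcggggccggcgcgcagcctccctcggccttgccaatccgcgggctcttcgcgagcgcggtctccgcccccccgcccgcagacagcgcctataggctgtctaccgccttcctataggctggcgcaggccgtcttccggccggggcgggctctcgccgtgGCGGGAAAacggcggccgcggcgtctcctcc
GINS1: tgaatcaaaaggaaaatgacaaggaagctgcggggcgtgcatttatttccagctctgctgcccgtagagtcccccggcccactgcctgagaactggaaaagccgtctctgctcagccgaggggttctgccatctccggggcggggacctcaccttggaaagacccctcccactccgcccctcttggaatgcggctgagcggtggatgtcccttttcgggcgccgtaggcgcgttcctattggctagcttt
MCM7, which was higher, and MCM6 and CDC7, which were lower, all hold more than 1 match. CDC25A and GINS2, both lower, hold 1 each, and GINS1, which was higher, holds none.

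Over all members, 49 of 57 had an upstream sequence in the RefSeq table. An E2F octamer was present in 20 of the 49 (40.8%), against 3.82% of 15384 genes tested with such a sequence. The members with a match were 5 of 16 that rose, 8 of 12 that fell and 7 of 21 that did not pass. Over all genes with such a sequence, a match was present in 5.17% that rose, 4.54% that fell and 3.31% that did not pass. Whether a match goes with the direction of change was not tested. A CCAAT box, CCAAT on either strand, was present in 29 of 49 members (59.2%) and 39.7% of those genes. The nuclear factor I palindrome, TTGGC and GCCAA with 5 bases between them, was found in 0 of 49 members and 0.052% of the genes, and the single site TTGGCA in 2 members, CDK4 and GINS2, and 12.3% of the genes. A match is a description of the letters in this window and is not a bound site.

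At the replication fork, 4 of 15 members rose and 1 fell (33.3% called, against 31.9% of all genes). With dim probe sets left out, 3111 of 13147 genes were higher and 3447 lower, a larger share than at the fork. Of the 4 clamp loader members, RFC5 and RFC2 rose and RFC3 and RFC4 did not pass. RFC5, a subunit of the complex that loads the PCNA clamp, read 10.42, 10.46 and 10.41 in the transfected arrays and 9.83, 9.92 and 9.81 in the wild type arrays. The groups did not overlap, and the rise was 0.58 (SE 0.07, limma adjusted p = 0.000491). The other RFC5 probe sets, whose means were 9.69 and 9.01 in transfected and 8.06 and 7.34 in wild type arrays, rose by 1.63 and 1.67, and the mean over all 3 rose by 1.29. The neighbours of RFC5 shifted by 0.36, and after subtraction its brightest probe set read 0.22 (limma adjusted p = 0.0435).

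RFC2 rose by 0.30 and by 0.37 on its second probe set, but by 0.15 after its neighbours' shift was subtracted (limma adjusted p = 0.00979 as measured and 0.13 after subtraction). RFC3 and RFC4 read -0.19 and 0.10 (limma adjusted p = 0.197 and 0.475). RFC1, the large subunit of the loader and not a member, fell by 0.26 (limma adjusted p = 0.0229). Without wild type replicate 3, RFC3 read -0.295 (limma adjusted p = 0.0279). PCNA read 11.19, 11.29 and 11.33 in transfected arrays and 11.45, 11.48 and 11.40 in wild type arrays. These groups did not overlap, yet the change of -0.17 did not pass (95% interval -0.34 to -0.01, limma adjusted p = 0.113).

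The primase gene PRIM1 fell by 0.32 (limma adjusted p = 0.0215), a call that ended without transfected replicate 2 or wild type replicate 1 or 2 (adjusted p = 0.0722, 0.0662 and 0.0523). The polymerase genes POLA1, POLA2, POLD1, POLE and POLE2 ranged from -0.24 to 0.16 and did not pass. POLA1 was the closest (limma adjusted p = 0.0505). The flap endonuclease FEN1 rose by 0.29 on its brightest probe set and by 0.31 on the second (limma adjusted p = 0.0258 for the gene), but the call ended without transfected replicate 2 or 3 or wild type replicate 1 or 3 (adjusted p = 0.0715 to 0.0833). RPA1, the large subunit of the single-strand binding protein, rose by 0.25 (limma adjusted p = 0.0407, but 0.05003 with the replicate block and 0.0906 to 0.136 when any array but transfected replicate 3 was left out). RPA2 and the ligase LIG1 read 0.11 and 0.01 and did not pass.

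**Figure D4:**
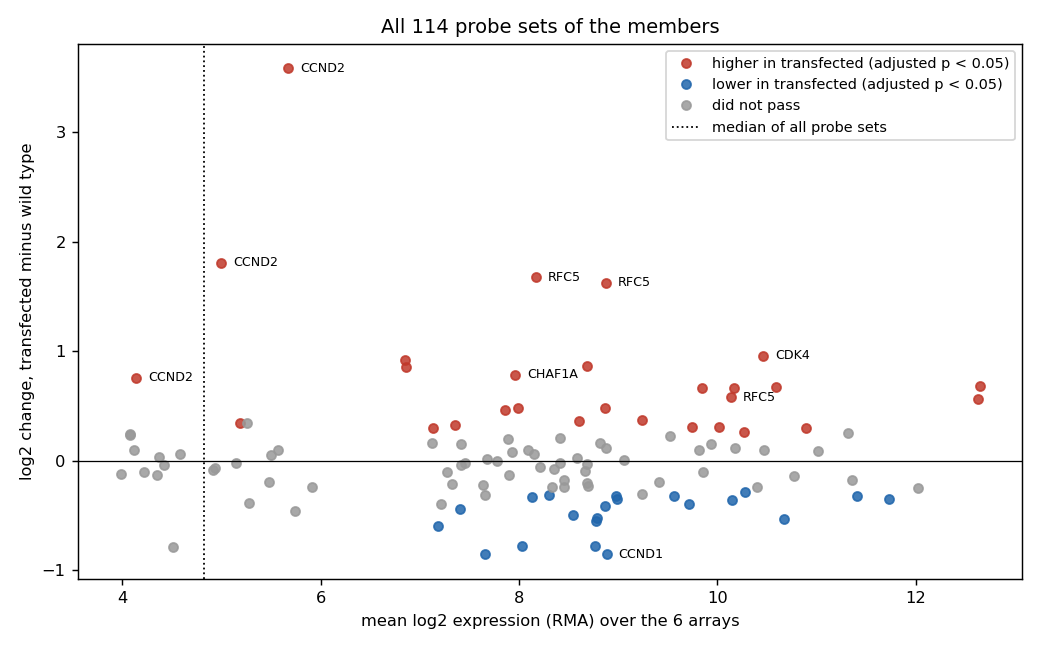
Log2 change, transfected minus wild type (vertical axis), against mean log2 expression (horizontal axis) for all 114 probe sets of the members, coloured by the test over all probe sets, with a dotted line at the median of all probe sets, 4.82. The 2 RFC5 probe sets at 1.63 and 1.67 lie above the brightest one at 0.58, and the CCND2 probe sets spread from 0.06 to 3.58.

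Nucleotide supply genes went opposite ways. RRM2, the regulated subunit of ribonucleotide reductase, read 13.08, 13.04 and 12.83 in the transfected arrays and 12.40, 12.37 and 12.15 in the wild type arrays. It rose by 0.68 (SE 0.10, limma adjusted p = 0.00175) and by 0.56 on its second probe set, with no overlap of groups. Its neighbours shifted by 0.49, and after subtraction RRM2 read 0.185 (limma adjusted p = 0.223). RRM1, the catalytic subunit, changed by 0.09 with overlapping groups (95% interval -0.07 to 0.25).

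TYMS, the thymidylate synthase gene, read 11.56, 11.57 and 11.54 in the transfected arrays and 11.93, 11.96 and 11.83 in the wild type arrays. It fell by 0.35 (SE 0.07, limma adjusted p = 0.00571), and its second probe set fell by 0.36, while the last one, near background, read 0.23. The mean of all 3 did not pass (limma adjusted p = 0.186). The thymidine kinase TK1 fell by 0.32 and by 0.35 on its probe sets, but read -0.12 after its neighbours' shift was subtracted (limma adjusted p = 0.0123 as measured and 0.26 after subtraction). DUT, which removes dUTP, fell by 0.25 (limma adjusted p = 0.0473), a call that ended with the replicate block (adjusted p = 0.0653), with median centring (0.0721), and without any array but wild type replicate 3. The DUT probe set with a plain _at suffix read 0.057. On their brightest probe sets, TYMS and TK1, whose products both make thymidylate, were lower beside a higher RRM2. None of the calls of TYMS, TK1 and RRM2 held under all alternatives.

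In chromatin assembly, 1 of 4 genes passed (25%, against 31.9% of all genes and a larger share once dim probe sets are left out). CHAF1A, the large subunit of the factor that deposits histones behind the fork, read 8.35, 8.34 and 8.37 in the transfected arrays and 7.73, 7.55 and 7.43 in the wild type arrays. The rise was 0.78 (SE 0.09, limma adjusted p = 0.00044), and 2 other probe sets rose by 0.92 and 0.86. The last one, at 3.93 in transfected and 4.05 in wild type arrays, read -0.12. CHAF1B, its partner, read 0.10, the histone chaperone ASF1B -0.17 and UHRF1, which recruits the maintenance methyltransferase, -0.14, and none of them passed (limma adjusted p = 0.37, 0.104 and 0.305).

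Some members lay among neighbours that shifted too. For each gene the median change of the 10 measured genes on either side along its chromosome was taken. Across the 57 members the change and this shift had a Spearman rho of 0.41 and a Pearson r of 0.16, or 0.449 without CCND2. Across 19738 genes the values were 0.312 and 0.28. These are correlations across genes, which share the arrays and are not independent replicates. Shifts beyond 0.2 in size surrounded 9 members (15.8%), against 13.6% of all genes, and ranged from -0.59 at CDC25A to 0.49 at RRM2. CCND1, CDC7, MCM6 and GINS1 had neighbours' shifts of 0.035, 0.035, 0.0033 and 0.062 beside changes of -0.86, -0.85, -0.53 and 0.87. After subtraction, 16 members were higher and 11 lower. POLE2, the second subunit of polymerase epsilon, read -0.21 as measured and 0.30 after subtraction (limma adjusted p = 0.0407), beside neighbours at -0.51.

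**Figure D5:**
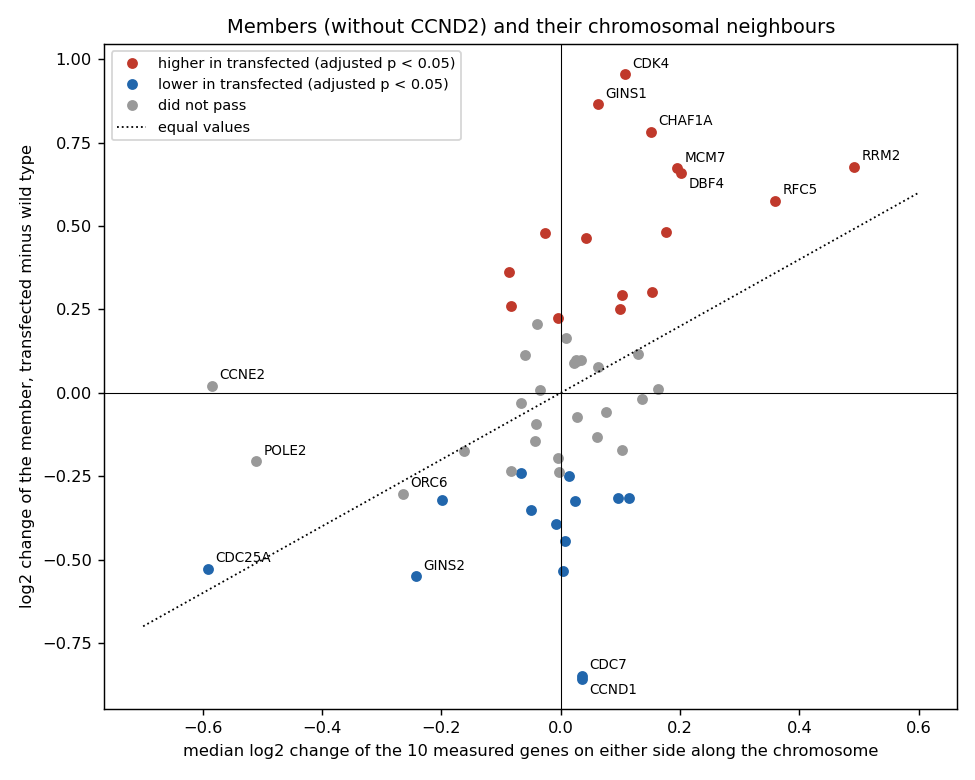
Log2 change of each member, transfected minus wild type (vertical axis), against the median log2 change of the 10 measured genes on either side (horizontal axis) for 56 members without CCND2, with a dotted line where both are equal. CDC25A lies near that line at -0.59 and -0.53, while CDK4, GINS1, CCND1 and CDC7 lie far from it near a shift of 0.

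A list of 64 further replication and G1/S genes that are not members gave 62 with a value, of which 11 rose, 17 fell and 34 did not pass (median log2 change 0.04). The share called was 45.2%, against 31.9% of all genes. With dim probe sets left out, 3111 of 13147 genes were higher and 3447 lower, a larger share than in this list. The E2F repressors E2F7 and E2F6 rose. E2F7 read 9.30, 9.37 and 9.46 in the transfected arrays, against 7.68, 7.94 and 7.53 in the wild type arrays (log2 change 1.66, SE 0.11, limma adjusted p = 4.2e-05, or 0.998 averaged over its probe sets). E2F6 rose by 0.97. E2F5, which acts with the pocket proteins, read 6.64, 6.85 and 6.99 in transfected arrays and 7.97, 7.91 and 8.03 in wild type arrays, with a log2 change of -1.14 (limma adjusted p = 0.000128), or -0.71 averaged over its probe sets. The E2F family thus held members past the threshold in both directions among activators and among repressors.

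CDK inhibitor genes were lower or did not pass. CDKN1A, the p21 gene, read 7.41, 7.43 and 7.60 in transfected arrays and 8.56, 8.77 and 8.88 in wild type arrays, a fall by 1.26 (SE 0.10, limma adjusted p = 9.4e-05). CDKN1C, the p57 gene, fell by 1.16 (limma adjusted p = 0.000884). CDKN1B, CDKN2A and RB1 read 0.01, 0.06 and 0.05 and did not pass (limma adjusted p = 0.959, 0.571 and 0.893), although CDKN1B read 0.58 above neighbours that shifted by -0.57 (adjusted p = 0.00347). MYC fell by 0.59 (limma adjusted p = 0.00174), and cyclin A2 (CCNA2), the S-phase cyclin, rose by 0.65 (limma adjusted p = 0.00456).

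SAMHD1, DCTPP1, RRM2B, POLD2 and TICRR are among the 10 largest changes of that list and do not stand for the rest of it. Its nucleotide and origin genes CTPS1, DCK, GINS4 and TOPBP1 read 0.08, 0.20, 0.21 and 0.16 and did not pass. Others of that kind passed: ORC4 and ORC5 rose by 0.52 and 0.45 (limma adjusted p = 0.00109 and 0.00164). ORC3 and CAD fell by 0.54 and 0.41 (limma adjusted p = 0.00169 and 0.00262). SAMHD1, which degrades deoxynucleotides, rose by 1.08 (limma adjusted p = 0.000699, or 0.55 on its brightest probe set with a plain suffix). DCTPP1, a dCTP pyrophosphatase, fell by 1.01, and RRM2B, the p53-inducible reductase subunit, fell by 0.96 (limma adjusted p = 7.1e-05 and 0.00456). POLD2, a polymerase delta subunit, fell by 0.97 beside neighbours at -0.72, and by 0.25 after subtraction. TICRR, the treslin gene needed to load CDC45, rose by 0.84 (limma adjusted p = 0.000144), or by 0.52 averaged over its probe sets.

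Among 6 markers of dividing cells, 2 rose, 1 fell and 3 did not pass (50% called, against 31.9% of all genes). With dim probe sets left out, 3111 of 13147 genes were higher and 3447 lower, a share close to that of these markers. MKI67 and the checkpoint kinase BUB1 rose by 0.38 and 0.75 (limma adjusted p = 0.0102 and 0.000343), PLK1 fell by 0.33 (0.0281), and CCNB1, AURKA and TOP2A read -0.01, 0.02 and 0.10. The mean of the 57 members per array was 9.21, 9.26 and 9.24 in the transfected arrays and 9.17, 9.21 and 9.08 in the wild type arrays. Without CCND2 it was 9.24, 9.29 and 9.27 in the transfected arrays and 9.27, 9.31 and 9.16 in the wild type arrays. The groups overlap in both measures.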

How the data were processed

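Per the labels, total RNA from 6 samples of MDA-MB-436 was labelled with biotin and hybridized to Affymetrix arrays of 54675 probe sets. The authors deposited log2 expression values, made with RMA per the submitters' processing notes. The RMA version and the arrays it was run on together are not stated there. Groups and replicate numbers were read from the sample titles. The 62 control probe sets were left out. Probe sets were named by the platform annotation, with symbols updated by gene identifier. A gene was read by its brightest probe set that names only it, which gave 19775 genes. Groups were compared with limma 3.58.1 in R 4.3.3 (two-sided, 3 arrays against 3), with Benjamini-Hochberg adjustment over all genes or all 54613 probe sets. Intervals are 95% intervals of the moderated fit. Arrays have no read depth, and their number limits the precision.

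The members and lists were chosen with earlier results of these data known. Values on every array were given for members past the threshold with a change of at least 0.5 in size and for 12 fixed members. From the further list, the 10 largest changes, 6 fixed genes and some others were named. Deviations of same-numbered arrays from their group means correlated at 0.398, 0.238 and 0.14 for replicates 1, 2 and 3, all above 0.1, so the numbers were taken to pair the arrays, although wild type replicate 2 and transfected replicate 3 correlated as highly (0.142) as the last pair. A fit with this block was an alternative, beside other normalizations, array weights, trend and robust moderation, a filter on dim probe sets, other ways to read a gene and leaving out each array. Gene order came from RefSeq, assembly GRCh38.p14.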

Additional observations from a re-analysis of the deposited data

How the results depend on the processing

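With each array left out in turn, 12 to 15 members were higher and 9 to 15 lower, against 17 and 14 with all arrays. Over all 19775 genes, 2438 to 2978 were then higher and 2748 to 3079 lower, against 2961 and 3339 with all arrays. The fewest lower calls of members, 9, came without wild type replicate 1 or 2. Over probe sets the ranges were 19 to 24 higher and 13 to 20 lower, against 28 and 21, and over the further replication genes 10 to 11 higher and 14 to 17 lower, against 11 and 17. With the mean of a gene's probe sets, 9 members were lower. With _x_at and _s_at probe sets left out, 43 members had a value, 5 were higher, and 11 of the further genes were lower. Of the 17 higher calls, 12 rest on such a probe set, and 9 of those genes have no other. In that setting GINS2, CHAF1A and DUT read 0.05, -0.12 and 0.057. After the neighbours' shift was subtracted CDC25A read 0.065 and POLE2 0.30, and the calls of GINS2, RRM2, MCM4, RFC2, FEN1, RPA1 and TK1 ended. The mean of probe sets ended those of MCM6, GINS2, CCND3, TYMS, E2F2, CDT1, GINS3 and DUT. CCNE1, PCNA, ORC2, ORC6, POLA1, RFC3, CCNE2 and POLE2 passed under some alternative. The cause was not tested. The replicate block gave 15 members higher and 12 lower, ended the calls of CCND3, GINS3, RPA1 and DUT, and changed no other call of a member. Quantile normalization, median centring, array weights, trend and robust moderation and the filter on dim probe sets kept both counts of members within 1.5 times. Of the 31 calls, 11 held in all of the 15 alternatives, although 5 of these 11 genes have no value without _x_at and _s_at probe sets. The 3 arrays a group limit what small changes can be called.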
